A study of Homo sapiens with 9 samples.

Results

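The comparison of decitabine with control covered 6 of the 9 RNA-seq libraries of the study and all genes listed in them. The cells were PC-3, a line derived from a bone metastasis of human prostate cancer. The 3 libraries labelled Dec came from cells given 1 µM decitabine, and the 3 labelled Ctrl from control cells. The controls were given a vehicle of sulfuric acid and ethanol in PBS, as the methods of the study state. RNA was taken 5 days after the start of treatment. The other 3 libraries, from cells given decitabine with S-adenosylmethionine (SAM), entered only the estimate of the spread. All libraries came from a single cell line, and the labels do not say whether replicates were separate cultures, so p-values measure the spread between these libraries.

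Decitabine is a cytidine analogue that is built into DNA during replication and traps DNA methyltransferases there. DNA methylation is then lost as cells divide. Promoters rich in CpG, the dinucleotide that carries the methyl group, are mostly unmethylated and active in normal cells, but those of tissue-restricted genes and many genes silenced in cancer can be methylated. DNA methylation was not measured in these libraries, and levels of RNA alone are given here.

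The libraries were of nearly equal depth, 21934045 to 22489534 counts. A level is given in CPM, the count relative to library size after TMM scaling, where 1 CPM was about 21.9 counts in the smallest library before that scaling, and it is not divided by transcript length. Between 24270 and 24682 genes had a count in the controls and between 28766 and 29387 after decitabine. The 100 highest genes took 18.3% to 19.1% of the counts in the controls and 14.1% to 14.7% after decitabine. The labelled cell type was checked against some markers of prostate and epithelium. In the 6 libraries no count was recorded for KLK3, the gene of prostate-specific antigen, or for MSMB, which marks secretory prostate epithelium. HOXB13, a prostate lineage factor, was present in each control, at 580, 594 and 596 CPM. KRT18 and KRT19, keratins of simple epithelia, lay between 337 and 445 CPM in the controls. Other markers were low. Of 12 prostate luminal markers, 5 had no count in any control and 4 had at least 1 CPM. Of 10 epithelial markers, 9 had at least 1 CPM, with a median of 17.3 CPM, and the cadherin CDH1 had a control mean of 1.87 CPM.

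Of 18532 genes tested, 6729 (36.3%) were upregulated and 6030 (32.5%) were downregulated at an adjusted p of 0.05 (edgeR). With library size as the only scaling, upregulated genes made up 70.3% of all calls instead of 52.7%, and the log2 fold changes of the genes tested had a median of 0.28 instead of 0.03. Values for gene lists are therefore given relative to all genes with at least 1 CPM in the controls, whose own median was -0.14 (14053 genes). Of these expressed genes, 25.6% were called up and 42.3% down. Of all genes tested, 4208 increased and 1139 decreased by over 1 (log2), and of the expressed genes 1200 and 1064. The 3 control and 3 decitabine libraries did not overlap for 72.9% of the genes tested, and the rules for named genes mostly required this.

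The direction of change followed the level in control cells. Protein-coding genes were placed in 7 classes by their control mean. Of the 3479 without a count in any control, 8.28% were called up, and of the 2219 with up to 0.1 CPM, 24.9%. The share of upregulated genes was highest between 0.1 and 1 CPM, at 53.1% of 1877 genes. It was 46.8% between 1 and 10 CPM, 23% between 10 and 100 CPM, 13.2% between 100 and 1000 CPM and 5.68% of the 88 genes at 1000 CPM and over. The share of downregulated genes ran the other way, from 17.8% between 1 and 10 CPM to 45.0%, 65.1% and 83.0% in the next classes. Genes under 1 CPM could hardly be called down at this depth, so the decreases are only comparable from 1 CPM upwards. Cutting the classes on control replicate 1 and taking the ratio to the other 2 controls gave medians of 0.29, -0.15, -0.34 and -0.81 (log2) from the class of 1 to 10 CPM upwards. With library size alone, 39.0% of the genes between 10 and 100 CPM were called up and 26.6% down, so the balance of that class turned with the scaling.

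**Figure D1:**
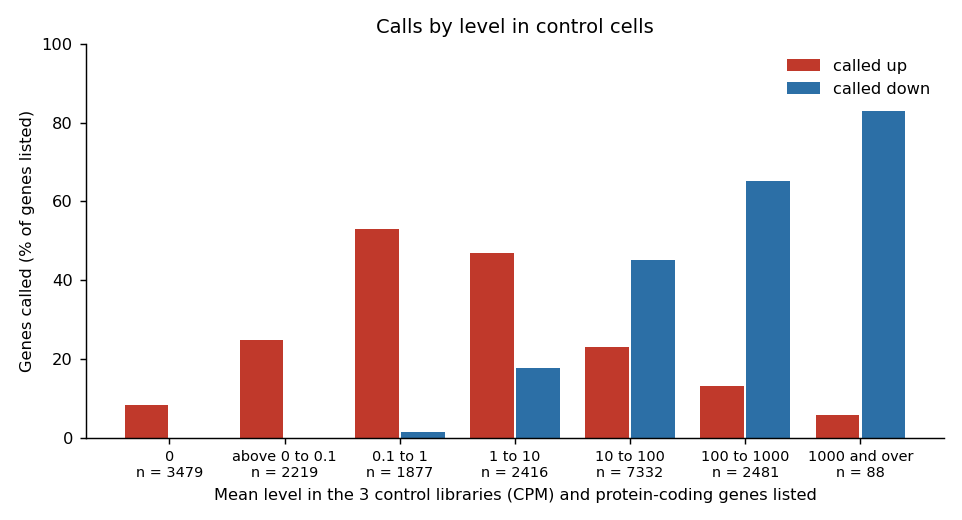
Share of protein-coding genes called up (red) or down (blue) by edgeR, in percent of all genes listed in each class (vertical axis), by mean level in the 3 control libraries in CPM (horizontal axis, with the number of genes). Increases peak at 53.1% between 0.1 and 1 CPM and decreases reach 83.0% at 1000 CPM and over.

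GAPDH and ENO1, at the top of the control range, fell by similar amounts in the decitabine libraries. GAPDH, the glycolytic glyceraldehyde-3-phosphate dehydrogenase, had 3434, 3602 and 3539 CPM in the controls and 1414, 1347 and 1197 CPM after decitabine. ENO1, the glycolytic enolase, had 4020, 4020 and 3834 CPM against 1711, 1636 and 1521 CPM. RPL3, a protein of the large ribosomal subunit, had a log2 fold change of -1.3 (SE 0.09, adjusted p = 1.9e-08). These genes were chosen after their values were seen. Genes such as GAPDH, RPL3, NPM1, KRT8 and KRT18 have many processed pseudogenes, between which reads may be split. Only 5 protein-coding genes at 1000 CPM and over were called up. Among them were the actin-binding TMSB4X, at 946 to 1111 CPM in the controls and 1602 to 1614 CPM after decitabine, the cytoplasmic actin ACTG1 (log2 fold change 0.5, SE 0.07) and vinculin, VCL, which links actin to adhesion sites (0.54, SE 0.11). All 13 protein-coding genes of the mitochondrial genome were called down, with a median log2 fold change of -2.61. The 2 mitochondrial ribosomal RNAs were called up, MT-RNR1 from 514, 557 and 578 CPM to 1529, 1532 and 1348 CPM, and MT-RNR2 with a log2 fold change of 0.35 (SE 0.14, adjusted p = 0.034) and overlapping groups. Without the mitochondrial genome, 81.0% of the 79 genes at 1000 CPM and over were called down.

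The largest increases among genes with at least 10 CPM in the controls were led by interferon-stimulated genes, of which IFI6 had the highest log2 fold change, 5.33 (SE 0.84, adjusted p = 0.0013). Outside that group, the genes given here were chosen after the values were seen. PI3, the protease inhibitor elafin of epithelial surfaces, had 26.5, 41.5 and 61.1 CPM in the controls and 542, 794 and 942 CPM after decitabine. TGM2, a transglutaminase that crosslinks matrix proteins, rose from 18.2, 27 and 30.6 CPM to 338, 416 and 434 CPM (log2 fold change 3.97, SE 0.19). THBS1, the matrix protein thrombospondin-1, rose from 34.8, 40.1 and 53.6 CPM to 394, 632 and 697 CPM. S100P, a calcium-binding protein, and SPINT1, an inhibitor of cell surface serine proteases, had log2 fold changes of 3.44 (SE 0.18) and 3.13 (SE 0.09). The groups did not overlap for these genes, which the choice required.

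The largest decreases in the same range outside the mitochondrial genome began with MSMP, a small secreted protein related to the prostate protein MSMB. Its level was 1047, 704 and 479 CPM in the controls and 115, 76.3 and 21.4 CPM after decitabine, so the libraries of each group differed widely without overlap (log2 fold change -3.39, SE 0.75, adjusted p = 0.0066). TSPEAR had 18.8, 19.2 and 15.9 CPM against 2.79, 2.19 and 1.61 CPM. MUC5B, a gel-forming mucin, had 1088, 1529 and 1390 CPM against 283, 243 and 124 CPM. LONRF2 and ONECUT3, a homeodomain factor, had log2 fold changes of -2.62 (SE 0.14) and -2.52 (SE 0.14). ANKRD36C also fell, from 88.4, 77.8 and 75.3 CPM to 18.7, 11.7 and 5.38 CPM, but it has close relatives in the genome between which reads may be shared.

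**Figure D2:**
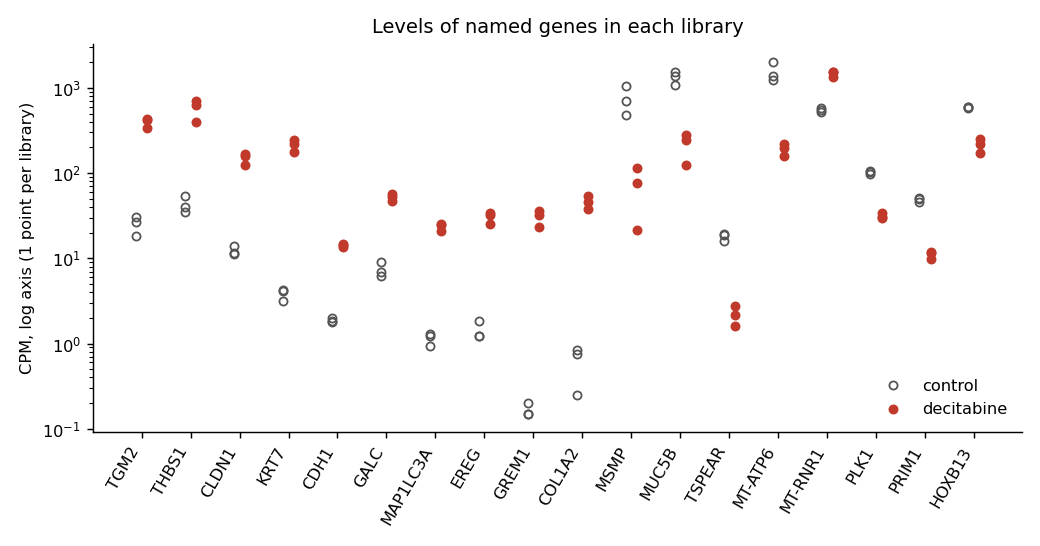
Level in CPM (log axis) of 18 named genes (horizontal axis) in each of the 3 control libraries (open circles) and 3 decitabine libraries (red). The genes shown were named for groups without overlap or chosen after their values were seen, and the controls of MSMP spread from 479 to 1047 CPM.

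The response also differed with the CpG content of the promoter, and the order depended on the control level. Windows of 1000 bases around the annotated start were graded by CpG content as high (observed to expected CpG of at least 0.75 with at least 55% GC), low (under 0.48) or intermediate. Among protein-coding genes with no count in the controls, 13% of the 399 with a high-CpG promoter and 14.5% of the 661 with an intermediate one had at least 10 counts in every decitabine library, against 3.49% of the 2380 with a low-CpG promoter. Genes meeting this rule are called newly detected. Among expressed genes up to 1000 CPM, the low-CpG class had the largest share called up. The gap was small between 1 and 10 CPM, at 44.9%, 46.8% and 50.4% in the high, intermediate and low classes. Between 10 and 100 CPM, 42.8% of the 348 genes with a low-CpG promoter were called up. This compares with 21.2% of the 2571 with an intermediate promoter and 22.5% of the 4412 with a high one. Increases of over 1 (log2) were found for 20.7% of the low and 3.56% of the high class. Without 19 and 9 genes of an interferon-stimulated list that was written after the values were seen, these shares were 16.7% and 3.38%. Between 0.1 and 1 CPM, the shares called up were 51.9%, 55.2% and 52.2% in the high, intermediate and low classes. With 300-base windows from a RefSeq promoter table, 35.8% of low-CpG and 21.9% of high-CpG genes between 10 and 100 CPM were called up. Increases of over 1 (log2) were then found for 13.4% and 3.17%.

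**Figure D3:**
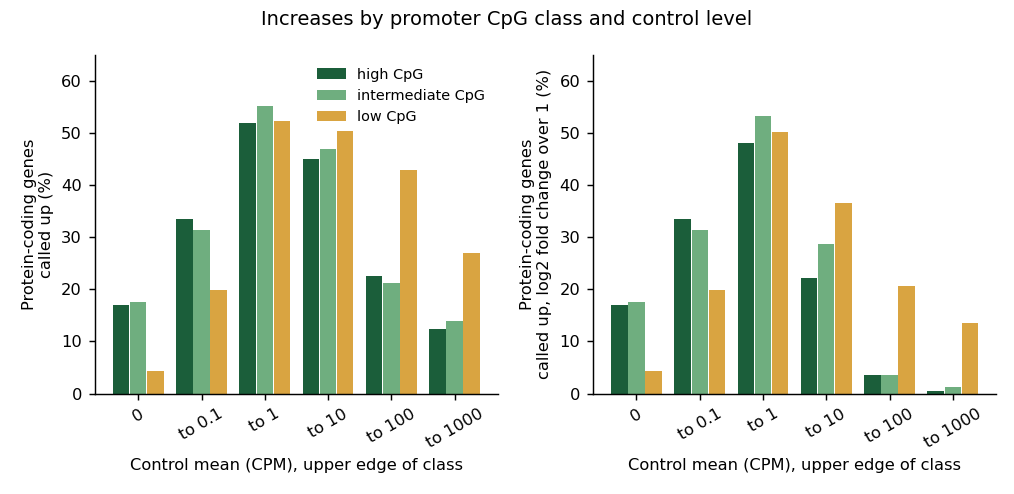
Percent of protein-coding genes called up (left) and called up with a log2 fold change over 1 (right) by control level in CPM (horizontal axis, upper edge of each class), for high (dark green), intermediate (light green) and low (yellow) promoter CpG. Low-CpG promoters have the smallest share of the 3 classes at 0 counts, 4.37% called up, and the largest of the 3 between 10 and 100 CPM, 42.8%.

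The promoters below show both kinds. Each is the 250 bases before the start in RefSeq (GRCh38.p14), 5′ to 3′ on the strand of the gene, with every CG in capitals. OAS1 (chr12:112906712-112906961, plus strand) and IFI6 (chr1:27672193-27672442, minus strand) rose, from a control mean of at least 10 CPM. MSMP (chr9:35754277-35754526, minus strand) and ANKRD36C (chr2:95991825-95992074, minus strand) fell, and RBMXL3 (chrX:115189160-115189409, plus strand) and DMRTB1 (chr1:53459149-53459398, plus strand) were newly detected. CLDN1 (chr3:190322447-190322696, minus strand), which rose, and INA (chr10:103276888-103277137, plus strand), which was newly detected, were added for comparison after their values were seen.
OAS1: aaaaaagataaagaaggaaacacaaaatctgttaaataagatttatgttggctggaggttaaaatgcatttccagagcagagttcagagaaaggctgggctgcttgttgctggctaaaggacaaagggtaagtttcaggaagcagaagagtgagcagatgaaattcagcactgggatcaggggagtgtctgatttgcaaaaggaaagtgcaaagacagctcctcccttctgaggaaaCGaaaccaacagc
IFI6: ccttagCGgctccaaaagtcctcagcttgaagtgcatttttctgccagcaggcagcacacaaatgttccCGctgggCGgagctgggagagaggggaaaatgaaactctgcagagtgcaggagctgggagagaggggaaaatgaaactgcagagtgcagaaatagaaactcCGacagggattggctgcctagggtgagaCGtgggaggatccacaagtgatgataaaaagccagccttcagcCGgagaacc
MSMP: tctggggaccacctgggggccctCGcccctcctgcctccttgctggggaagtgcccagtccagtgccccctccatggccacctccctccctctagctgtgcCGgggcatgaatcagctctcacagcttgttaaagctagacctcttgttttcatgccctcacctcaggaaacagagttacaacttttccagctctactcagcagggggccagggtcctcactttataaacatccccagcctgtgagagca
ANKRD36C: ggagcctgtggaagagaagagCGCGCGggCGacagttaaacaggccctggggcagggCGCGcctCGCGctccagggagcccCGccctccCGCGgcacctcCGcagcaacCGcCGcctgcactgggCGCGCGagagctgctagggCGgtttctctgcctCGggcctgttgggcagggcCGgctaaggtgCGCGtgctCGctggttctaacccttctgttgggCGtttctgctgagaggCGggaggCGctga
RBMXL3: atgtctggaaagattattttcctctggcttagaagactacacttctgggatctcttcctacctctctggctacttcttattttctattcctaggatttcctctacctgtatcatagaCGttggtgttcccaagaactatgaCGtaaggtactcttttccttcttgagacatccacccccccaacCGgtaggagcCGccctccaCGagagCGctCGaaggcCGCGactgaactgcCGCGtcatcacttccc
DMRTB1: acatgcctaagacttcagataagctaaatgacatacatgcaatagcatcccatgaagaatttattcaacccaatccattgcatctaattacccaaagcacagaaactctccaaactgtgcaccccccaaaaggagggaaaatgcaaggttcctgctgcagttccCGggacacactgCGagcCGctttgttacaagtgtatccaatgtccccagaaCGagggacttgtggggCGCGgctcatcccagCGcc
CLDN1: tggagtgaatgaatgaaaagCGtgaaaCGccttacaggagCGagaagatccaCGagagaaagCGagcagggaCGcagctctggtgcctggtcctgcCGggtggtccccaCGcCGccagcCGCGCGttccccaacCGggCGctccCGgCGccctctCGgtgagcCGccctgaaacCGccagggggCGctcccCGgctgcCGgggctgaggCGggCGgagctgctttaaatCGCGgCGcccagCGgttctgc
INA: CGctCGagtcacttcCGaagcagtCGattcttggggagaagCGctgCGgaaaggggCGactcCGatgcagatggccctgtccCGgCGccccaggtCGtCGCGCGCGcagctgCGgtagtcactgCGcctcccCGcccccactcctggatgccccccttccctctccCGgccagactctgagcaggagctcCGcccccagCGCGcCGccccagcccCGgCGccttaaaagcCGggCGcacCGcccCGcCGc
The CG dinucleotide occurred 1 time in the window of OAS1, 6 times in IFI6, 2 times in MSMP, 26 times in ANKRD36C, 11 times in RBMXL3, 7 times in DMRTB1, 28 times in CLDN1 and 30 times in INA. The median of the 27305 promoters in the RefSeq table was 11. As many as in INA were found in 12.2% of them, and at least 1, as in OAS1, in 93.6%.

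Newly detected genes numbered 337, of which 231 were protein-coding and 69 were long non-coding RNAs, and no gene was lost by the same rule in the other direction. RBMXL3, a retrogene of an RNA-binding protein on the X chromosome, had no count in the controls and 43.3, 50.4 and 44 CPM after decitabine, at least 924-fold higher when the controls are set to 3 counts in all. DMRTB1, a transcription factor of the germ line, had 25.2, 26.8 and 23.2 CPM (at least 505-fold). INA, the neuronal intermediate filament alpha-internexin, had 14.5, 18.6 and 17.9 CPM (at least 343-fold). DCAF4L2 and SPANXA1, a sperm protein with near-identical copies, had means of 28.8 and 22.1 CPM. Other newly detected genes, chosen after their values were seen, included the endothelial adhesion receptor ADGRL4, with 16.1, 13.8 and 9.87 CPM, the basal keratin KRT17, at 3.09, 8.18 and 17.3 CPM, the neurofilament subunit NEFH and the extracellular glutathione peroxidase GPX3. The newly detected genes took 0.135% to 0.138% of the counts of a decitabine library.

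Genes without a count in the controls responded most often on the X chromosome. There, 43 of 222 such protein-coding genes (19.4%) were newly detected, against 188 of 3218 (5.84%) on the autosomes. Families expressed in the germ line, such as MAGE, GAGE, PAGE, SSX and SPANX, held 22 of the 43 genes. Without them, 12.7% of 165 genes on the X chromosome and 5.84% of 3202 on the autosomes were newly detected. The families were taken by symbol, so germline genes with other names stayed in. The 21 others on the X chromosome included CT83, DDX53, FTHL17 and LUZP4, besides the monoamine oxidase MAOB and the serotonin receptor HTR2C. The 12.7% is thus not a share free of germline genes. In windows of 1 Mb, 257 held a single newly detected gene, and at most 4 lay together. One such window was on chromosome 3, with PRR23A, PRR23B and PRR23C among its genes. The other was on chromosome 2 from 233000001 to 234000000, with UGT1A8, UGT1A10, DNAJB3 and ENSG00000178836, some of which overlap, so their counts may not be independent.

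Expressed genes differed little between chromosomes. The median log2 fold change of expressed protein-coding genes lay between -0.22 on chromosome 22 and -0.05 on chromosome 18. The share called up was lowest on chromosome 16 (19.5%) and highest on chromosome 19 (32.1%), where many zinc finger genes lie. The share called down was highest on the X chromosome (49%). The shares of all counts did not overlap between the groups for any chromosome except 2, 5, 13 and 19 (exact permutation p = 0.1, the smallest that 3 against 3 allows). The share of the mitochondrial genome was 4.31% ± 0.481 in the controls and 1.91% ± 0.335 after decitabine (SD, n = 3), and the other shares are parts of the same total. That of chromosome 21 was 0.898% ± 0.0135 and 1.04% ± 0.0231, and that of chromosome 18 was 0.827% ± 0.0105 and 0.944% ± 0.018. The share of chromosome 19 was 6.42% ± 0.186 and 6.29% ± 0.267, with overlapping groups.

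**Figure D4:**
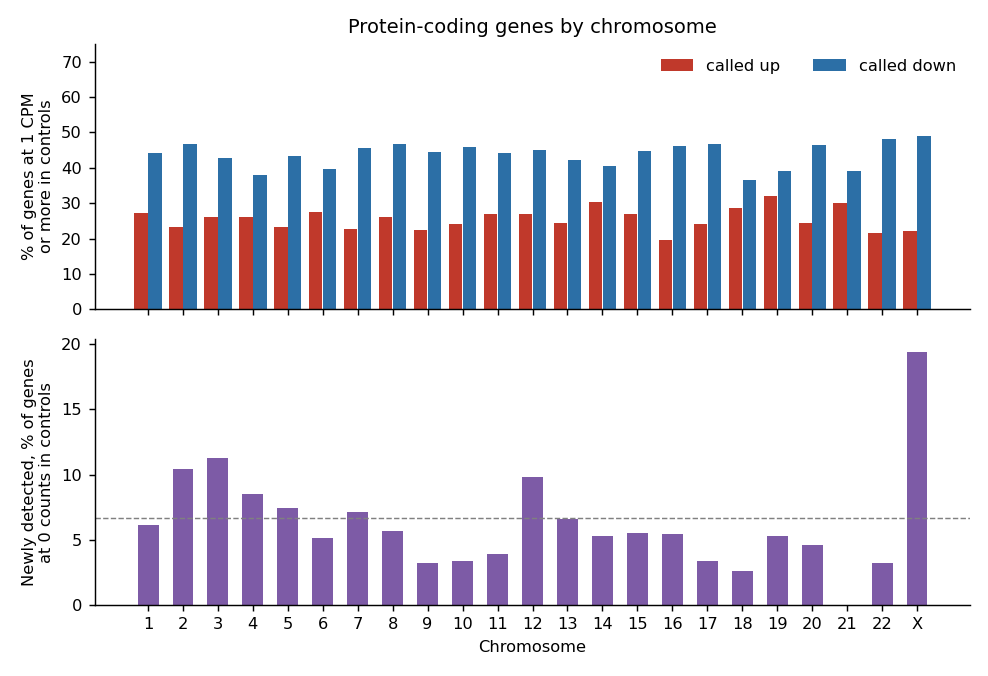
Protein-coding genes by chromosome. Top, percent of genes with at least 1 CPM in the controls called up (red) or down (blue). Bottom, percent of genes without a count in the controls that were newly detected, where the dashed line is the value over all protein-coding genes (6.64%) and the X chromosome stands at 19.4%.

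Long non-coding RNAs took 1.05% ± 0.0215 of all counts in the controls and 1.39% ± 0.04 after decitabine (SD, n = 3, exact permutation p = 0.1). Of 2993 tested, 1408 were called up and 388 down, but 1254 had at least 1 CPM in the controls, and among these 346 rose and 352 fell. Among the largest increases were RNAs without a count in the controls. MEG3, an imprinted RNA of chromosome 14, had 24.3, 22.7 and 36.3 CPM after decitabine, at least 558-fold higher. MANCR fell from 26.6, 24.1 and 21.6 CPM to 2.79, 1.27 and 1.31 CPM, and SSTR5-AS1 from 139, 130 and 124 CPM to 20.5, 13.2 and 9.19 CPM. Host genes of small nucleolar RNAs, whose introns carry guides for ribosomal RNA modification, went mostly down: 16 of 28 fell and 5 rose. Those with at least 1 CPM in the controls numbered 23, with a median of 20 CPM. Among them 16 fell and 2 rose, or 11 and 4 with library size alone. For comparison, 48.1% of all long non-coding RNAs between 10 and 100 CPM fell. SNHG29 had 228, 228 and 201 CPM against 102, 96.8 and 101 CPM. Reads of an antisense RNA and its partner gene cannot be told apart where the library does not keep the strand, which is not given in the sources used here.

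Genes with more exons fell more often. Of expressed protein-coding genes with 2 exons, 35.6% were called up and 29.2% down (554 genes), and of those with 17 or more, 22.6% and 48% (2691 genes). Within the class of 10 to 100 CPM the shares called down were 34.3% and 48.9%. Genes with 1 exon were the exception, with 33.2% up and 37.8% down (241 genes). By span on the genome, 40.7% of genes under 5 kb and 46.8% of those over 200 kb fell.

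Lists of the basic machinery of the cell were mostly downregulated. Over 8 such lists, 181 of 257 genes (70.4%) fell and 10 rose, with 13 decreases and no increase over 1 (log2). With library size alone, 112 fell and 46 rose. These genes were highly expressed, and in the class of 100 to 1000 CPM 65.1% of all protein-coding genes fell. The spliceosome, which removes introns, had 31 of 39 members down and none up, with a median of -0.44 relative to all expressed genes. In single libraries this value was -0.45, -0.4 and -0.46 after decitabine and -0.02 to 0.01 in the controls. PRPF19, which activates the spliceosome, had 285, 313 and 313 CPM against 144, 125 and 128 CPM. Of the chaperonin that folds actin and tubulin and its partner prefoldin, 10 of 14 members fell (relative median -0.4), among them CCT5, from 692, 728 and 782 CPM to 418, 416 and 375 CPM. Mitochondrial protein import had 24 of 30 members down and none up (-0.36), such as the presequence translocase subunit TIMM21 (log2 fold change -1.22, SE 0.1). The nuclear pore had 21 of 29 down (-0.24), translation initiation factors 26 of 35 (-0.19), ribosome biogenesis 27 of 40 (-0.18) and the proteasome 23 of 31 (-0.17). With library size alone, 11 fell and 3 rose in the nuclear pore, and 16 and 6 in translation initiation. These counts were 18 and 10 in ribosome biogenesis and 9 and 6 in the proteasome. For the spliceosome they were 25 and 4, for mitochondrial protein import 17 and 3, and for chaperonin and prefoldin 8 and 1. NPM1, a nucleolar chaperone of ribosome assembly, had 1900, 1937 and 1996 CPM against 1056, 959 and 868 CPM. RRP12, a factor of ribosomal subunit export, rose from 112, 121 and 119 CPM to 186, 208 and 203 CPM. RNA polymerase II and Mediator, with 5 up and 19 down of 39, had a relative median of -0.02, and with library size alone 13 rose and 8 fell.

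Genes of cell division fell together. Of 45 genes of the mitotic spindle and kinetochore, 40 fell and none rose (34 and 4 with library size alone), with a relative median of -0.66 and values of -0.48, -0.6 and -0.74 in the decitabine libraries against -0.06 to 0.08 in the controls. PLK1, the kinase that drives entry into mitosis, had 97.0, 104 and 105 CPM in the controls and 34.0, 29.7 and 30.9 CPM after decitabine. SPC24 and SPC25, subunits of the kinetochore complex that binds microtubules, had log2 fold changes of -1.48 (SE 0.13) and -1.65 (SE 0.15). Of 46 genes of DNA replication, 41 fell and 1 rose (28 and 1 with library size alone), with a relative median of -0.45. PRIM1, the catalytic subunit of primase, had 49.5, 46.3 and 50.7 CPM against 11.9, 11.7 and 9.78 CPM. The member that rose was CCNE1, cyclin E1, which drives entry into S phase, with 5.51, 7.95 and 8.0 CPM against 9.43, 9.62 and 10.5 CPM (adjusted p = 0.012). Nucleotide synthesis had 28 of 32 members down and none up (22 and 3 with library size alone), with a relative median of -0.55. Among those down was CAD, which starts pyrimidine synthesis (log2 fold change -1.22, SE 0.1). In bulk libraries, fewer dividing cells and less RNA per cell cannot be told apart.

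The lysosome moved the other way. Of 47 genes, 29 rose and 8 fell, with a relative median of 0.47 and values of 0.4, 0.55 and 0.43 in the decitabine libraries. GALC, which degrades galactosylceramide of myelin, rose from 8.94, 7.0 and 6.17 CPM to 53.1, 56.6 and 46.6 CPM. HEXA, the alpha subunit of hexosaminidase, had 1 count in the 3 controls together and 2.88, 4.05 and 3.3 CPM after decitabine. Among those that fell were IDUA, which degrades heparan and dermatan sulphate (log2 fold change -1.46, SE 0.18), and PPT1, which removes palmitate from proteins (-0.63, SE 0.06). The vacuolar ATPase that acidifies lysosomes had 6 of 16 members up and 2 down (relative median 0.28), with ATP6V0A2 at 0.57 (SE 0.07) on the log2 scale. Of the autophagy core, 14 of 37 rose and 6 fell (0.22). The shares that rose, 37.5% for the vacuolar ATPase and 37.8% for autophagy, were near that of all genes tested. MAP1LC3A, which coats the autophagosome, rose from 1.24, 1.3 and 0.938 CPM to 21.0, 24.7 and 25.0 CPM, and OPTN, an autophagy receptor, from 19, 22.3 and 21.2 CPM to 69.5, 70.1 and 77.0 CPM. ATG5 and ATG16L1, which attach LC3 to the membrane, fell, with log2 fold changes of -0.52 (SE 0.08) and -0.73 (SE 0.09). The peroxisome, with 7 up and 16 down of 33, had a relative median of -0.07, and with library size alone 14 rose and 10 fell.

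Epithelial junction and keratin genes rose in part. Of 37 genes of tight junctions, which seal the space between epithelial cells, 22 rose (59.5%) and 3 fell (8.11%). The relative median was 0.68, with 0.68, 0.68 and 0.65 in the decitabine libraries. CLDN1 rose from 12.1 ± 1.51 CPM to 150.0 ± 23.4 CPM (SD, n = 3), and CLDN7 from 0.894, 1.3 and 1.28 CPM to 17.1, 15.7 and 19.1 CPM. CLDN4, the claudin with the most counts in the controls, fell from 367, 419 and 365 CPM to 162, 154 and 172 CPM. CDH1, the epithelial cadherin of adherens junctions, had 1.84, 2.0 and 1.78 CPM against 13.7, 14.5 and 14.9 CPM. Desmosomes and classical cadherins had 9 up and 9 down of 35, 25.7% each. This is near the 25.1% up and 27.4% down of all protein-coding genes. Among the 19 expressed, 6 rose and 9 fell. DSP and JUP, which anchor keratin filaments at desmosomes, each had a log2 fold change of 2.46 (SE 0.23 and 0.09), while PKP1, another desmosomal protein, fell by 0.99 (SE 0.07). The keratins split. KRT7 rose from 3.18, 4.1 and 4.2 CPM to 175, 220 and 246 CPM and KRT8 by 1.14 (SE 0.08) on the log2 scale, while KRT19 fell by 0.58 (SE 0.09). KRT18, at -0.25 (SE 0.08), was not called with library size alone. HOXB13 fell to 249, 218 and 174 CPM. Of the connexins and pannexins, channel proteins that include those of gap junctions, 10 of 24 rose (41.7%) and 1 fell (4.17%).

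Of the 11 ligands of the EGF receptor family, 9 rose and 1 fell, where 25.1% of all protein-coding genes rose and 27.4% fell. EREG, epiregulin, rose from 1.24, 1.85 and 1.23 CPM to 32.6, 33.8 and 25.5 CPM, and EPGN, epigen, from 0.348, 0.25 and 0.296 CPM to 7.61, 11.6 and 13.9 CPM. NRG1, neuregulin 1, had no count in the controls and 1.94, 2.07 and 1.86 CPM after decitabine, whereas NRG2 fell from 35.4, 35.8 and 34.6 CPM to 10.5, 10.2 and 8.34 CPM. Of the 22 fibroblast growth factors, 10 were tested, and 9 rose, such as FGF1 (log2 fold change 2.5, SE 0.22). None fell, but only 6 had at least 1 CPM in the controls, and decreases could hardly be called below that. Of 42 immediate early genes and feedback regulators of the ERK cascade, 23 rose (54.8%) and 12 fell (28.6%), with a relative median of 0.45. EGR2, an early growth response factor, had 0.546, 0.5 and 0.938 CPM against 13, 21.2 and 32.1 CPM, while FOSL1, an AP-1 subunit, fell by 0.95 (SE 0.08).

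Of 31 genes in a list of targets of YAP and TAZ, the coactivators of the Hippo pathway, 18 rose and 6 fell (relative median 0.49). The list and its counts also hold both coactivators, YAP1 and WWTR1 (TAZ), and their partners TEAD1, TEAD2, TEAD3 and TEAD4, which are not targets as such. WWTR1 itself fell by 0.53 (SE 0.11) on the log2 scale. ANKRD1 rose from 0.0993, 0.6 and 1.18 CPM to 58.8, 93.9 and 101 CPM, and F3, tissue factor, from 1.89, 2.0 and 2.37 CPM to 38, 49.3 and 66.4 CPM. The receptor kinase AXL fell by 0.98 (SE 0.1). Of 57 genes of TGF-beta and BMP signalling, 27 rose and 14 fell (0.28). The BMP antagonists moved apart, with GREM1 at 0.199, 0.15 and 0.148 CPM against 23.3, 32.4 and 35.7 CPM, and NOG, noggin, at 54.0, 48.8 and 40.7 CPM against 13.1, 11 and 7.79 CPM. Retinoid metabolism and targets had 16 of 24 members up and 2 down, among them STRA6, the cell surface receptor for retinol-binding protein (log2 fold change 6.29, SE 0.53), and TGM2. In the Notch list, 20 of 41 rose and 9 fell, with the glycosyltransferase MFNG at 5.04 (SE 0.2) and the target HEY1 at -1.98 (SE 0.15). WNT ligands, receptors and transducers were called 16 times in each direction among 57, 28.1% each, near the 25.1% up and 27.4% down of all protein-coding genes. Of the expressed ones, 9 rose and 16 fell, which turned to 14 and 10 with library size alone.

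**Figure D5:**
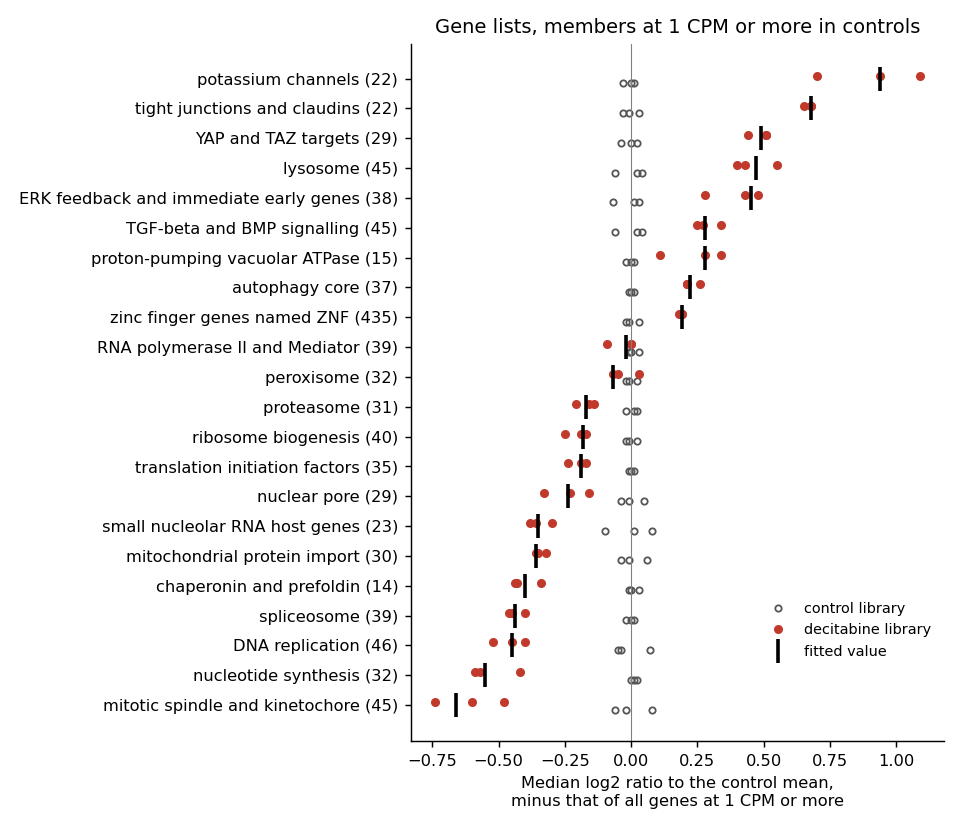
Median log2 ratio to the control mean of the members of 22 lists and families with at least 1 CPM in the controls (number in brackets; lists with a higher median, such as fibroblast genes at 1.65, are not drawn), minus that of all such genes (horizontal axis). Open circles are the 3 control libraries, red circles the 3 decitabine libraries and black bars the fitted values, from -0.66 for the mitotic spindle to 0.94 for potassium channels.

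Of genes typical of other tissues, 68 of 338 had at least 1 CPM in the controls. Over the 8 lists, 114 of 338 genes (33.7%) were called up and 18 (5.33%) down. Of all protein-coding genes listed, 25.1% were called up, and of those at 0.1 to 1 CPM, 53.1%. Of 25 fibroblast genes, 15 rose and none fell. COL1A2, a chain of type I collagen, had 0.745, 0.85 and 0.247 CPM against 37.8, 45.3 and 53.9 CPM, FBLN2, fibulin-2, 0.397, 0.3 and 0.543 CPM against 24.4, 28.2 and 23.8 CPM, and THY1, a surface glycoprotein, no count against 4.14, 6.03 and 6.27 CPM. Of 31 endothelial genes, 16 rose and 1 fell, with ICAM2 from at most 0.247 CPM to 12.9, 14.6 and 12.2 CPM. Of 55 leukocyte genes, 20 rose and 3 fell, with the T cell kinase LCK (log2 fold change 5.26, SE 0.36) and PTPRC, the leukocyte antigen CD45, which stayed at 0.888 to 1.27 CPM after decitabine. The shares called up were below that of all protein-coding genes for hepatocyte genes (19.6% of 51) and near it for erythroid (25.8% of 31) and epidermal genes (10 of 37). Of 51 skeletal and cardiac muscle genes, 17 rose and 2 fell. Of 58 neuronal and synaptic genes, 18 rose and 10 fell, and of the 19 expressed ones 4 rose and 10 fell. Of 63 genes of the motile cilium, 29 rose and 5 fell, led by FOXJ1, the factor that drives motile cilia, from at most 0.0497 CPM to 6.22, 5.4 and 4.4 CPM.

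Large gene families differed in how often they responded. Of 83 potassium channels, 32 rose and 5 fell, and KCNS1 went from at most 0.0494 CPM to 8.71, 7.3 and 7.71 CPM. Of 404 olfactory receptors, 8 rose and 2 fell, and 265 had no count in any of the 6 libraries. Of 557 genes named ZNF, 188 rose and 126 fell (relative median 0.19). Of 380 solute carriers, 114 rose and 84 fell (22.1%), against 25.1% up and 27.4% down of all protein-coding genes. Of the 210 expressed ones, 64 rose and 83 fell, which turned to 90 and 49 with library size alone. S100 proteins had 11 of 19 up and 2 down, with S100A14 at 4.3 (SE 0.25) and S100A16 at -1.13 (SE 0.08). A list of 24 homeobox genes, among them those named DLX, IRX, MEIS and PITX, had 14 up and 1 down, and the 3 called GATA factors, GATA2, GATA3 and GATA6, all rose. The C-type lectins, with 2 up and 2 down of 31, were among the families with the fewest calls. Of them, only 7 were tested and 17 had no count in any control.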

How the data were processed

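RNA-seq libraries of PC-3 cells were assigned to groups by the labels of treatment and replicate. The authors trimmed reads with TrimGalore and counted them with kallisto against GRCh38.p13. The annotation release and strand setting are not given in the sources used here. Estimated counts per Ensembl gene, deposited with decimals and without scaling, were the values analysed. The deposited log2 CPM values were not used. Of 60617 identifiers, 60357 matched GENCODE release 44.

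Counts were rounded and tested with edgeR 4.0.16 (R 4.3.3) by the robust quasi-likelihood test, with TMM scaling, filterByExpr and 1 mean per group over 9 libraries. Adjustment (Benjamini-Hochberg, 0.05) covered every gene tested. The gene lists, families and the rules for named genes were chosen with earlier results of these data known. Named were the 10 largest changes each way in coding genes with a control mean of at least 10 CPM. The 5 highest newly detected coding genes were named after some germline and interferon families were left out by symbol prefix. The prefixes did not cover SPANXA1 or DMRTB1. Also named were 5 lncRNAs each way with at least 5 CPM in a group, up to 3 members per list each way, cell line markers, and 1 Mb windows. All genes named by these rules had groups without overlap, the markers excepted. Genes named outside these rules were chosen for their role or value. Some genes that these rules name are not reported here. List medians cover members with a control mean of at least 1 CPM, and per-library values used a pseudocount of 0.5 CPM. Promoter windows of 1000 bases were read from the genome, since the RefSeq promoter table held 77.1% of coding genes and 74.5% of the newly detected ones. The 300-base windows of that table had been planned first, with 1000 bases as the alternative. Of genes without a control count, these 300-base windows gave 14.7%, 15.3% and 3.44% newly detected in the high, intermediate and low classes. A fold against 0 counts was set to 3 counts over the group and covers counting error only.

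Pairs of libraries within a group differed by a chi-square of 6.92 to 20.4 per degree of freedom, so none was a copy. The alternatives were other scalings and filters, DESeq2 1.42.0, voom and limma 3.58.1, the 6 libraries alone, the replicate block, and leaving out each library. On simulated data for decitabine against control, with 15826 to 15859 genes tested, the test recovered 98.5% of changed genes and 4.27% of its calls were false. Each draw held 200 changed genes, far fewer than were called in the real data, and the same spread for all genes. These rates therefore do not give the share of false calls in the results above. Python 3.11.15 was used for the rest.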

Additional observations from a re-analysis of the deposited data

How the results depend on the processing

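The balance of calls depended on the scaling: with library size alone, 8849 genes were called up and 3746 down, 10.8% of coding genes at 1 to 10 CPM were called down, 39% at 10 to 100 CPM up and 26.6% down, and 27% at 100 to 1000 CPM up. Thresholds on the log2 fold change of 1 and 1.5 left 4208 and 3292 genes up and 1139 and 315 down. Cutting the classes on the mean of 6 libraries gave 20.2% up at 100 to 1000 CPM. Allowing 1 control count gave 600 newly detected genes, a minimum of 5 counts gave 577 with 3 lost, and a minimum of 20 gave 175. Leaving out single libraries gave 6399 to 6960 genes up and 5557 to 6200 down, and relative medians of -0.1 to 0.0 for the peroxisome, 0.68 to 0.72 for tight junctions, 0.27 to 0.36 for TGF-beta and BMP signalling, 0.17 to 0.22 for ZNF genes and -0.09 to -0.05 for chromosome X. The cause of these shifts was not tested. With the replicate block, 6808 genes were called up and 6137 down. Same-numbered libraries did not deviate together (correlations -0.03, -0.05 and -0.01), so the numbers were not taken as pairs. Among the single genes named here, KRT18 lost its call with library size alone (adjusted p = 0.96) and without control replicate 2 (adjusted p = 0.053; edgeR). The reference of the relative medians, the 300-base genome window and the classes without the mitochondrial genome were chosen after seeing the data. Genes under 1 CPM are limited by depth.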

Other observations

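Several smaller groups moved in parts. Of 28 smooth muscle and actin contractile genes, 16 rose and 5 fell, with TPM2, a tropomyosin, at 7.15, 9.76 and 8.29 CPM in the controls and 159, 141 and 138 CPM after decitabine, and SMTN, smoothelin, at a log2 fold change of -1.34 (SE 0.12). Of 32 genes of prostaglandin and leukotriene synthesis, 16 rose and 4 fell. PTGS2, the inducible cyclooxygenase, had at most 0.1 CPM in the controls and 5.2, 10.5 and 11.1 CPM after decitabine, while TBXAS1, thromboxane synthase, fell from 114, 91.6 and 84.1 CPM to 32.7, 24 and 18.7 CPM. In the Hedgehog list, 11 of 21 rose and 5 fell, with the ligand IHH at 3.15 (SE 0.38) and the transducer SMO at -1.14 (SE 0.09). Of 18 aldehyde dehydrogenases, 4 rose and 9 fell, and ALDH1A3, which makes retinoic acid, had 492, 523 and 574 CPM against 235, 258 and 283 CPM.

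Of 31512 genes without a count in the controls, 1801 had a count in every decitabine library. In the other direction, 82 of 26793 genes without a count after decitabine had a count in every control.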
